A study of Capra hircus with 8 samples.

Results

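The 7 genes described here decide, in textbook terms, whether a stressed cell stops dividing, dies or survives: CDKN1A, BAD, BID, PMAIP1, CASP6, BCL2L1 and MCL1. They were taken by symbol from the messenger RNA table of 8-cell goat embryos, where they are 7 of 22107 entries. The rule takes the genes by name and uses no value, but it was written with earlier results of these data known. The table covers embryos of Capra hircus made by in vitro fertilisation (IVF) or by nuclear transfer (SCNT, where a somatic cell nucleus takes the place of that of the egg), with 2 libraries of each kind at the 8-cell stage. Libraries of 4-cell embryos exist for both kinds, but their messenger RNAs were not analysed here. Whole embryos were lysed and their polyadenylated RNA was turned into Smart-seq2 libraries, a method for very small amounts of RNA. The labels name no donor cell, no number of embryos per library and no further treatment of either kind of embryo. They do not say whether replicates are separate pools, so p-values measure only the spread between these libraries, which may be technical.

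Apoptosis through mitochondria is set by the BCL2 family. Pro-survival members such as BCL-XL (gene BCL2L1) and MCL1 hold back the pore-forming proteins BAX and BAK, and BH3-only proteins such as BAD, BID and NOXA (gene PMAIP1) bind the pro-survival members and free the pore formers; cytochrome c then leaks out and caspases are activated. The transcription factor p53 induces both the cell cycle inhibitor p21 (gene CDKN1A) and several death genes, among them PMAIP1. Embryos in culture can lose cells by apoptosis, and nuclear transfer embryos develop less often than fertilised ones.

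Values are FPKM (fragments per kilobase of transcript and per 1000000 fragments), which allow levels of different genes to be set side by side. The 4 libraries had similar totals, the largest being 1.10 times the smallest, as recovered from the steps between low values. SCNT replicate 2 stood apart in having 11025 genes at 1 FPKM or more, against 8984 to 9883 in the others, and the median absolute log2 difference between replicates was 0.63 in SCNT and 0.30 in IVF. Of 4 transcripts that eggs store, looked up with the data known, the SCNT pair lay above the IVF pair for GDF9, BMP15 and NLRP5 and below it for ZAR1. GDF9 stood at 509 and 404 FPKM in IVF against 627 and 617 FPKM in SCNT, and BMP15 at 474 and 460 against 770 and 940 FPKM. NLRP5 was at 0.200 and 0.786 FPKM in IVF against 2.58 and 4.30 FPKM in SCNT, and ZAR1 at 1.45 and 1.73 against 1.31 and 1.29 FPKM. Of 15 fibroblast markers, 11 were tested and 2 rose (TIMP1 and TAGLN), beside 3.02% of all tested genes. The SCNT pair lay above the IVF pair for 6 of the 11: COL1A2, COL3A1, VIM, SPARC, TIMP1 and TAGLN. It lay below the IVF pair for 2, DCN and FN1. Of all tested genes the SCNT pair lay above for 46.9% and below for 17.1%. TIMP1, TAGLN and COL3A1 reached 1 FPKM, the level required for testing, in the SCNT libraries alone. The list summed to 133 to 141 FPKM in IVF and 109 to 128 FPKM in SCNT, but DCN sets that order: without it the sums were 47.2 and 47.0 FPKM in IVF against 75.4 and 88.8 FPKM in SCNT. No marker of the list was at 0 throughout; THY1 was at 0.0617 FPKM or less and COL1A1 at 0.993 FPKM or less. The 9 cumulus and granulosa markers found summed to 41.9 and 51.2 FPKM in IVF against 21.3 and 35.8 FPKM in SCNT, with AMH, FSHR and INHA at 0 throughout. Most of that sum was HAS2 (20.6 and 29.4 FPKM in IVF, 17.9 and 18.1 in SCNT) and TNFAIP6 (19.5 and 19.8 FPKM in IVF, 1.77 and 14.3 in SCNT). Only 3 of the 9 were tested and none passed. The part of either cell type in the differences below was not tested.

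In fertilised embryos the 7 genes fell into 3 tiers of level. PMAIP1 (mean 145 FPKM) and CASP6 (77.1 FPKM) were abundant, MCL1 (7.33), BCL2L1 (3.56) and BID (3.08 FPKM) were moderate, and CDKN1A (0.130 FPKM) and BAD (0.104 FPKM) were close to absent. The replicate ranges of neighbours in that order did not overlap, apart from BCL2L1 against BID and CDKN1A against BAD. In SCNT embryos CASP6 (177 FPKM) lay above PMAIP1 (74.7 FPKM), the reverse of the fertilised order, with no overlap in either group. The other 5 genes followed as MCL1 (12.5), BCL2L1 (10.4), BID (8.97), CDKN1A (5.99) and BAD (2.64 FPKM), each overlapping with the next. FPKM are relative to the fragments of each library and do not give amounts per embryo. A transcript present in fewer cells and one lower in every cell cannot be told apart in whole-embryo libraries.

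**Figure D1:**
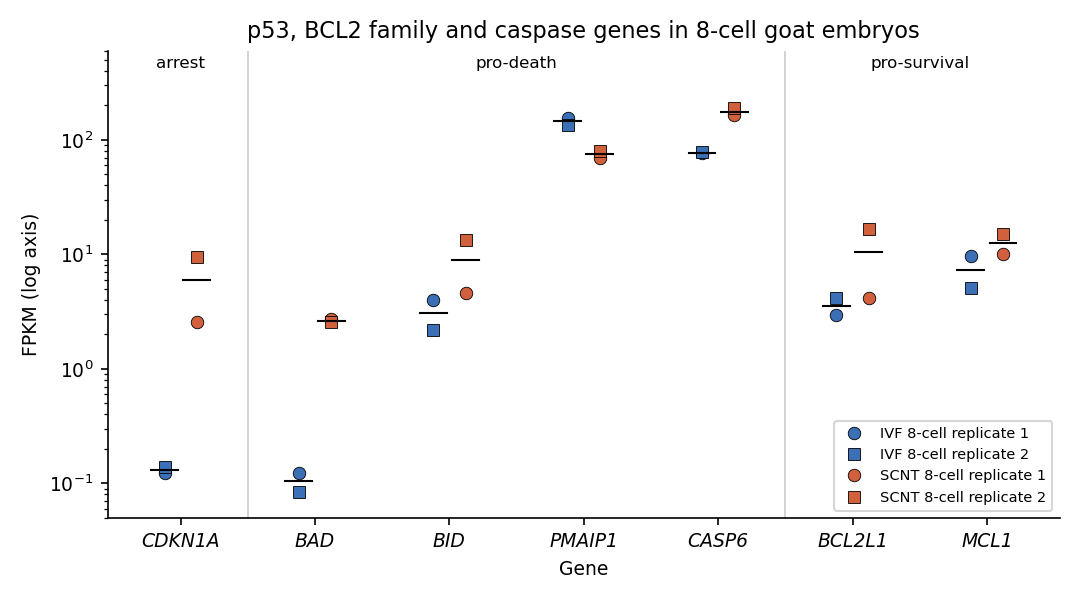
FPKM on a log axis of the 7 genes in each 8-cell library, blue for IVF and orange for SCNT, circles for replicate 1, squares for replicate 2 and bars for the group mean. CDKN1A and BAD are near 0.1 FPKM in IVF and above 2.5 FPKM in SCNT, PMAIP1 is the single gene lower in SCNT, and BCL2L1 is the single gene whose groups overlap.

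The comparison asked which of these genes differ between SCNT and IVF embryos at the 8-cell stage. Of the 7, CDKN1A and BAD rose in SCNT, none fell and 5 did not pass an adjusted p of 0.05 (limma, adjusted over all 10303 genes tested); 4 of the 7 had an unadjusted p under 0.05, as had 31.1% of all tested genes. Of all tested genes 3.86% passed, 3.02% as higher and 0.844% as lower. The SCNT pair lay wholly above the IVF pair for 5 of the 7 genes and wholly below it for 1, against 46.9% and 17.1% of all tested genes. The median log2 difference of the 7 was 1.17, beside 0.39 over all tested genes, so SCNT values of the tested genes are shifted upwards. Single differences are best read against that shift. Its size depends on the filter: the median was 0.13 with no filter and 0.27 with a filter at 5 FPKM. The summed FPKM of the libraries overlapped, at 415403 and 390117 in IVF against 380535 and 426553 in SCNT. Centring the libraries on their medians turned the split of all calls from 311 higher and 87 lower to 158 and 238, and quantile normalization turned it to 121 and 150.

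CDKN1A encodes p21, which inhibits cyclin-dependent kinases and is the best known target of p53. It stood at 0.122 and 0.138 FPKM in IVF replicates 1 and 2 and at 2.58 and 9.40 FPKM in SCNT replicates 1 and 2. Both SCNT libraries were far above both IVF libraries, and SCNT replicate 2 was 3.64 times replicate 1. The group values were 0.130 ± 0.0115 and 5.99 ± 4.82 FPKM (SD, n = 2), and the log2 difference after adding 1 FPKM was 2.43 ± 0.52 (SE; limma adjusted p = 0.0463). A difference at least that large was found for 185 of the 10303 tested genes. These levels come from few reads in IVF: the lowest whole read counts in the ratio of the 4 values are 8 and 10 in IVF and 175 and 639 in SCNT. The ratio of summed reads was 46.0 with an exact 95% interval of 28.9 to 77.9, which covers counting error only. The call was lost without IVF replicate 1 (log2 difference 2.42) and without SCNT replicate 2 (1.67). It was also lost after quantile normalization (limma adjusted p = 0.0538), without the variance trend (0.0560) and with no filter (0.242). Without SCNT replicate 1 the log2 difference was 3.20.

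BAD encodes a BH3-only protein that binds BCL-XL and BCL2 and is held inactive by survival kinases. It was at 0.124 and 0.0844 FPKM in the IVF libraries and at 2.70 and 2.57 FPKM in the SCNT libraries. The groups were far apart, and unlike CDKN1A the SCNT replicates lay close together, replicate 2 at 0.951 times replicate 1. The log2 difference was 1.72 ± 0.33 (SE; limma adjusted p = 0.0391), and 794 tested genes had one at least as large. Behind the IVF values stand 4 and 3 reads, and behind the SCNT values 90 and 86, again as the lowest whole numbers. The ratio of summed reads was 25.6 with an exact 95% counting interval of 12.1 to 64.5. Leaving out any library but SCNT replicate 1 ended the call. The log2 difference was 1.75, 1.69 and 1.75 without IVF replicate 1, IVF replicate 2 and SCNT replicate 2. The call also ended after median centring (limma adjusted p = 0.0620) and quantile normalization (0.0672), without the variance trend (0.0565) and with no filter (0.242). CDKN1A and BAD reached 1 FPKM, the level required for testing in at least 2 libraries, in the SCNT libraries alone; genes that enter a test in this way have to differ, so their number is no measure of how the group behaves.

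BID links death receptors to mitochondria when caspase 8 cuts it. Its values were 3.99 and 2.17 FPKM in IVF against 4.56 and 13.4 FPKM in SCNT. SCNT replicate 1 lay just above the higher IVF library, and SCNT replicate 2 was 2.93 times replicate 1. The difference, 1.17 ± 0.57 (SE) on the log2 scale, did not pass (limma adjusted p = 0.201). It was 0.48 without SCNT replicate 2 and 1.85 without SCNT replicate 1, where it passed (adjusted p = 0.0363).

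PMAIP1 encodes NOXA, a small BH3-only protein that binds MCL1 above all and is induced by p53 and by other stress pathways. It was the only one of the 7 genes with lower values in SCNT: 155 and 135 FPKM in the IVF libraries and 68.8 and 80.6 FPKM in the SCNT libraries. The groups did not overlap and the replicates of each lay close together. In fertilised embryos its mean was at or above that of 95.5% of tested genes, and in SCNT embryos of 89.6%. The log2 difference was −0.95 ± 0.38 (SE) and did not pass (limma adjusted p = 0.135). A difference at least as negative was found for 749 of the 10303 tested genes, and after median centring the difference was −1.44. Leaving out SCNT replicate 1 brought the adjusted p to 0.0464, with a log2 difference of −0.84.

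CASP6 encodes caspase 6, an executioner caspase known for cutting nuclear lamin A. It stood at 76.2 and 78.0 FPKM in IVF against 165 and 188 FPKM in SCNT. Both pairs of replicates were tight and the groups lay apart by a ratio of means of 2.29. The difference, 1.18 ± 0.37 (SE) on the log2 scale, did not pass (limma adjusted p = 0.0834), and 2118 tested genes had one at least as large. After median centring the difference was 0.69 (limma adjusted p = 0.302), and without SCNT replicate 1 it was 1.27.

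BCL2L1 encodes BCL-XL, and by alternative splicing also a shorter pro-death protein; the table gives 1 value for the gene and does not separate them. It was at 2.95 and 4.16 FPKM in IVF against 4.15 and 16.7 FPKM in SCNT. SCNT replicate 1 was within the IVF range and SCNT replicate 2 was 4.02 times higher, the largest gap between replicates among the 7 genes. The difference, 1.08 ± 0.62 (SE) on the log2 scale, did not pass (limma adjusted p = 0.266). Without SCNT replicate 2 it was 0.19, below the median of all tested genes, and without SCNT replicate 1 it was 1.97.

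MCL1 encodes a short-lived pro-survival protein that mouse embryos need around implantation. Its values were 9.59 and 5.07 FPKM in IVF against 10.0 and 15.1 FPKM in SCNT. The lower SCNT library was only slightly above the higher IVF library. The difference, 0.73 ± 0.49 (SE) on the log2 scale, did not pass (limma adjusted p = 0.335) and did not pass in any of the 13 alternatives run. It ranged there from 0.24 to 1.13.

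**Figure D2:**
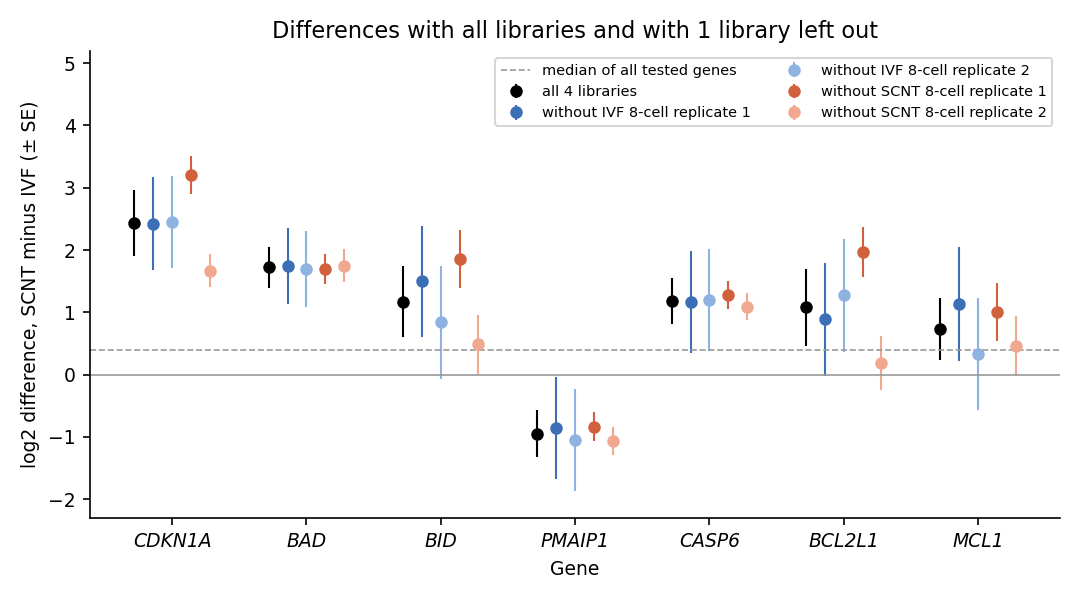
Log2 difference (SCNT minus IVF, after adding 1 FPKM) of each gene with its standard error, with all 4 libraries in black and with each library left out in colour; the dashed line is the median of all tested genes, 0.39. BAD, CASP6 and PMAIP1 stay near their values, whereas CDKN1A, BID and BCL2L1 are lower without SCNT replicate 2 and higher without SCNT replicate 1.

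Pro-death and pro-survival genes were then set against each other within each library, as ratios of FPKM. BAD stood at 0.0421 and 0.0203 of the BCL2L1 level in IVF and at 0.652 and 0.154 in SCNT, so the SCNT ratios were higher in both libraries. BID and BCL2L1 kept overlapping ratios, 1.35 and 0.522 in IVF and 1.10 and 0.803 in SCNT. The opposite order was found for NOXA and its partner: PMAIP1 was 16.2 and 26.7 times MCL1 in IVF and 6.86 and 5.35 times MCL1 in SCNT.

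The direction for the group as a whole depended on how the genes were combined and on the weight that this gave to BAD. The summed FPKM of BAD, BID and PMAIP1 was 12.7 and 14.9 times that of BCL2L1 and MCL1 in IVF and 5.37 and 3.04 times in SCNT, lower in both SCNT libraries. That sum is mostly PMAIP1. With geometric means, in which each gene counts equally, the ratio was 0.799 and 0.635 in IVF and 1.47 and 0.887 in SCNT, higher in both SCNT libraries. BAD then weighs as much as PMAIP1, with 4 and 3 reads in IVF and a ratio of means, SCNT to IVF, of 25.3. Of the pairs above, BAD to BCL2L1 alone was higher in both SCNT libraries. BID to BCL2L1 and PMAIP1 to MCL1 hold the same genes without BAD. Their log2 differences between SCNT and IVF were 0.16 and −1.78. Combined with equal weight they give a ratio that is lower in both SCNT libraries, so the higher geometric mean rested on BAD. With CASP6 added to the pro-death sum, the ratios were 18.8 and 23.4 in IVF and 17.0 and 8.97 in SCNT. These ratios are given as a description and no test was run on them; with 2 libraries against 2, an exact permutation test could not give a two-sided p below 0.333.

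**Figure D3:**
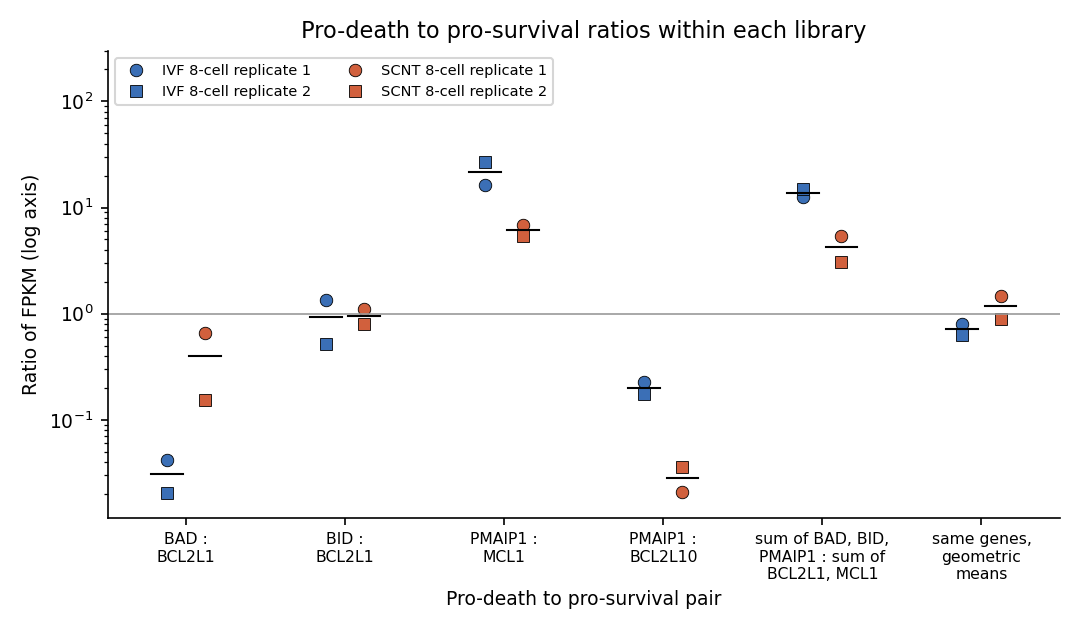
Ratio of FPKM (log axis) of pro-death to pro-survival genes in each library, blue for IVF and orange for SCNT, with bars for the mean of each group and a line at equal levels. The ratio of BAD to BCL2L1 is higher in SCNT, those of PMAIP1 to MCL1 and to BCL2L10 are lower, and the combined ratio lies below IVF as sums and above IVF as geometric means.

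The rest of the pathway was described from lists of genes, chosen with earlier results of these data known. Of 101 genes in the p53 and apoptosis lists as used here, 92 were found in the table and 64 were high enough to be tested; 8 rose (12.5%, beside 3.02% of all tested genes), CDKN1A and BAD among them, 0 fell and 56 did not pass; CDKN1A, BAD and CHEK2 entered the test through the SCNT libraries alone. The median log2 difference of the 64 was 0.51. The 6 other genes that rose were BCL2L10, CHEK2, DDB2, DFFA, LMNA and PLK3. Which of the 8 passed varied with the libraries: BCL2L10 was the only one left without SCNT replicate 2, CDKN1A, DFFA and LMNA were left without IVF replicate 2, and none was left without IVF replicate 1, where CDKN2C passed instead. CDKN1A, DFFA and LMNA passed after median centring, and BCL2L10, DFFA and LMNA after quantile normalization.

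Among BCL2 family genes, BCL2L10, a pro-survival member known for its abundance in eggs, outweighed all others. It rose from 686 and 776 FPKM in IVF to 3319 and 2230 FPKM in SCNT (log2 difference 1.90 ± 0.40 SE, limma adjusted p = 0.0458). Both SCNT libraries were well above both IVF libraries. BCL2L10 made up 79.7% and 83.8% of the summed FPKM of all BCL2 family genes listed in IVF, and 97.2% and 94.3% in SCNT, while PMAIP1 made up 18.0% and 14.6% in IVF and 2.02% and 3.41% in SCNT. PMAIP1 was thus at 0.226 and 0.174 of the BCL2L10 level in IVF and at 0.0207 and 0.0361 in SCNT. The pore-forming genes BAX, BAK1 and BOK did not reach the level for testing: BAX was at 0.232 FPKM or less, BAK1 at 0.264 FPKM or less, and BOK was listed at 0 in all 4 libraries.

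Of 7 BH3-only genes in the table, 4 were tested, BAD, BID, PMAIP1 and BCL2L11; BCL2L11, which encodes BIM, was at 0.454 and 0.741 FPKM in IVF against 1.34 and 2.22 FPKM in SCNT (limma adjusted p = 0.175). BBC3, which encodes the p53 target PUMA, was above 0 in 1 library, at 0.0138 FPKM. Beside CASP6, the caspase gene CASP2 stood at 8.07 and 9.52 FPKM in IVF against 9.19 and 13.1 FPKM in SCNT and did not pass (limma adjusted p = 0.685). CASP9, the caspase that the apoptosome activates, did not exceed 0.588 FPKM.

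Of 5 tested caspase targets in the breakdown of the nucleus, 2 rose, beside 3.02% of all tested genes. This list too was chosen with earlier results known. DFFA, which encodes the inhibitor that caspases remove from the apoptotic nuclease, was at 5.38 and 8.63 FPKM in IVF against 36.3 and 56.9 FPKM in SCNT (log2 difference 2.57 ± 0.46 SE, limma adjusted p = 0.0353). LMNA, which encodes lamin A, was at 0.852 and 1.26 FPKM in IVF against 8.49 and 20.7 FPKM in SCNT (log2 difference 2.81 ± 0.52 SE, limma adjusted p = 0.0387). Lamin A is also abundant in fibroblasts, and the part of such cells in the LMNA values was not tested. No gene passed among 6 tested apoptosome and mitochondrial genes, 5 inhibitors of apoptosis and 5 death receptor genes, whose median log2 differences were −0.02, 0.18 and 0.33.

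Of 21 p53 targets tested outside the BCL2 family, CDKN1A, DDB2 and PLK3 rose (14.3%, beside 3.02% of all tested genes), none fell and 18 did not pass. The median log2 difference was 0.04, beside 0.39 for all tested genes. DDB2, a DNA damage sensor, was at 1.37 and 1.91 FPKM in IVF against 8.01 and 19.9 FPKM in SCNT (limma adjusted p = 0.0496), and PLK3, a stress-responsive kinase, at 3.10 and 5.29 FPKM and at 18.6 and 41.4 FPKM (0.0445). The 2 most abundant targets over the 4 libraries had opposite orders and neither passed. CCNG1, which encodes cyclin G1, was at 334 and 301 FPKM in IVF against 151 and 57.2 FPKM in SCNT (limma adjusted p = 0.0689). TIGAR, a regulator of glycolysis, was at 36.2 and 59.4 FPKM in IVF against 142 and 130 FPKM in SCNT (limma adjusted p = 0.0650). MDM2, the p53 target that degrades p53, stood at 8.52 and 7.95 FPKM in IVF against 9.45 and 7.60 FPKM in SCNT. MDM2, BBC3 and CASP9 were singled out after their values were seen. Among 11 tested regulators and relatives of p53, CHEK2, a checkpoint kinase of the DNA damage response, rose from 0.923 and 0.317 FPKM to 4.53 and 4.91 FPKM (limma adjusted p = 0.0485); like CDKN1A and BAD it reached the level for testing in the SCNT libraries alone.

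Among 5 tested inhibitors of cyclin-dependent kinases, CDKN1A alone passed, beside 3.02% of all tested genes called higher. It entered the test through the SCNT libraries alone. CDKN2C had nearly the same log2 difference, 2.43 ± 0.56 (SE) against 2.43 ± 0.52 (SE) for CDKN1A, so the threshold barely separates them. CDKN2D, which encodes p19, was at 7.21 and 8.63 FPKM in IVF against 15.2 and 51.8 FPKM in SCNT (limma adjusted p = 0.0983), and CDKN2C, which encodes p18, at 2.87 and 0.666 FPKM and at 9.36 and 17.0 FPKM (0.0515). CDKN1C was at 4.16 and 3.45 FPKM in IVF against 1.53 and 7.60 FPKM in SCNT, so its groups overlapped.

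**Figure D4:**
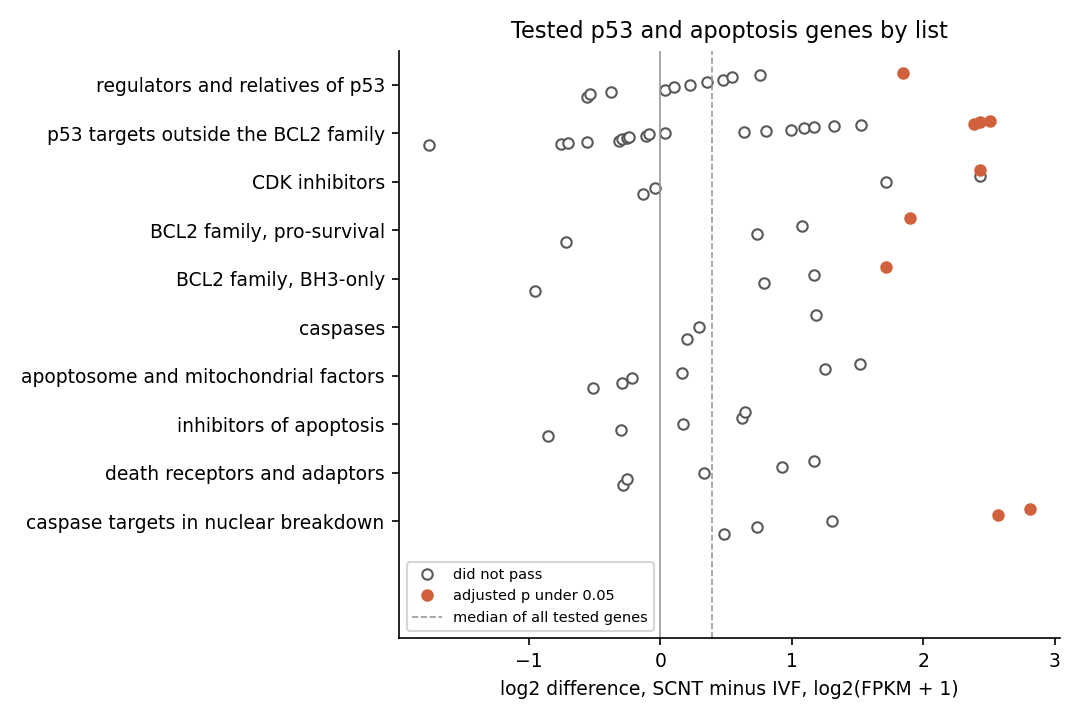
Log2 difference (SCNT minus IVF, after adding 1 FPKM) of each tested gene, by list; a gene may stand in more than 1 list, filled points passed an adjusted p of 0.05 in limma, and the dashed line is the median of all tested genes, 0.39. The 8 genes that passed all lie to the right, and the p53 targets spread on both sides of 0.

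The genes whose 4 values were most like those of each of the 7 were looked for among 8823 other protein-coding genes, by the root mean square difference of log2(FPKM + 1) values centred on each gene's mean. They were UBXN10 (0.0504) and RUVBL2 (0.0646) for CDKN1A, C2H1orf234 (0.0497) and BLCAP (0.0608) for BAD, and PM20D1 (0.0502) and PRMT5 (0.0568) for BID. For BCL2L1 they were PHB (0.0283) and LAPTM5 (0.0491), for MCL1 HJURP (0.0416) and SUMF1 (0.0464), for PMAIP1 ATP5S (0.0525) and C20H5orf58 (0.0559), and for CASP6 PATE1 (0.0182) and SYVN1 (0.0220). UBXN10, C2H1orf234 and PATE1 are listed at 0 in both IVF libraries, and PATE1 reached only 1.09 and 1.42 FPKM in SCNT, so their likeness rests on the added 1 FPKM. RUVBL2 stood at 2.36 and 2.50 FPKM in IVF against 10.9 and 33.3 FPKM in SCNT. With 4 libraries many genes have like profiles, and no p is given.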

How the data were processed

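The authors deposited FPKM values for 22107 gene entries in 4 libraries of 8-cell embryos, 2 each of IVF and SCNT. The tools named in the submitters' processing notes are fastp, HTSeq and HISAT2 2.2.1, with no role or order; for the genome build, annotation, scaling total and strand setting, nothing is given in the sources used. The lncRNA tables, which alone cover the 4-cell stage, were not used. A RefSeq table (ARS1.2) gave gene types and matched 22065 names, all 7 genes included. No sequences are shown.

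The 10303 genes that reached 1 FPKM in 2 or more libraries were tested on log2(FPKM + 1) with limma 3.58.1 in R 4.3.3 (lmFit, eBayes with trend), two-sided, with Benjamini-Hochberg adjustment over all tested genes and a threshold of 0.05. The step was tested on simulated data. Fold changes on this scale understate the change of low genes. Replicate numbers were not used as pairs.

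Relative depth was recovered from the commonest ratio of low FPKM values between libraries. With it, 223 of 300 genes drawn at random came to whole reads in every library within 0.02 read (at up to 500 reads in the lowest), against 33 with wrong ratios. Read numbers are the smallest that fit and are given for CDKN1A and BAD. PCR copies cannot be told from molecules.

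The 7 genes and all lists were chosen with earlier results of these data known. The genes named are the 7, every listed gene that passed, up to 4 of the most abundant genes of a list and the 2 nearest profiles of each of the 7; any other is marked. Some listed genes are not reported here and were left out of the list counts. Alternatives were the pseudocount, the filter, the scaling, the variance trend, a replicate block and leaving out each library.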

Additional observations from a re-analysis of the deposited data

How the results depend on the processing

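None of the 7 genes changed direction in any alternative that gave a value for it. Of 87 values of single genes under alternatives, 71 stayed on the same side of the threshold, 12 (for CDKN1A and BAD) lost the call and 4 (for BID, BCL2L1, PMAIP1 and CASP6, all without SCNT replicate 1) gained it. Adjusted p ranged from 0.00676 to 0.242 for CDKN1A and from 0.0120 to 0.242 for BAD. Leaving out each library gave 46 to 3834 calls over all genes, 0 to 6 among the 7 and 1 to 28 in the p53 and apoptosis lists. Without SCNT replicate 1 the spread comes from the closer IVF pair alone, and the lone SCNT library is assumed to vary like it. With no filter, limma called 0 genes, 0 of the 7 and 0 listed, with 3661, 4 and 23 at an unadjusted p under 0.05. With a filter at 5 FPKM it called 133 genes, 0 of the 7 (2 at an unadjusted p under 0.05) and 3 listed; CDKN1A and BAD are then too low to be tested. After median centring 1 of the 7 and 3 listed genes passed, after quantile normalization 0 (4 unadjusted) and 3, and without the variance trend 0 (4 unadjusted) and 4. Rescaling to a common total gave 1327 calls. Apart from the filters, whose construction changes the genes tested, the cause was not tested. The replicate block gave 1924 calls over all genes and 14 in the lists, and 2 of the 7 as before. The replicate numbers are not known to pair libraries: across genes the replicate differences of IVF and SCNT correlated at 0.12. The pro-death to pro-survival ratio was lower in SCNT as sums (log2 difference −1.77) and with CASP6 added (−0.76). With geometric means, in which BAD counts as much as PMAIP1, it was higher (0.68), which rested on BAD. Depth limits BAD most, with 3 and 4 reads in the IVF libraries.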
